A study of Mus musculus with 31 samples.

Results

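The transcripts described here are those of mouse embryonic stem cells (mESCs) that lack Ago2, compared with WT mESCs. Of the 15034 genes in the RNA-seq table, 11297 had a mean of at least 1 TPM (the transcript level scaled by transcript length and to a fixed library sum) over the 6 libraries compared, and all of these were tested. Annotation as protein coding was found for 10867 of the tested genes and another type, mostly long non-coding RNA, for 354. All cells came from the ES-E14TG2a line. The WT cells carried a FLAG tag on Trim71, an RNA-binding repressor of differentiation mRNAs, and were otherwise unedited at Ago2 (2 libraries). The Ago2 KO cells were made from such cells with Cas9 and a pair of guides, and single-cell clones were screened by PCR and western blot (4 libraries). Whether the 4 libraries came from 1 clone or from several was not given in the sources used here. The cells were cultured in 2i + lif, a medium with a MEK inhibitor, a GSK3 inhibitor and the cytokine lif. The labels call the libraries biological replicates, and nothing says that they came from separate clones, so the p-values measure the spread between these libraries. The series also held 2 libraries of CLIPΔ mESCs, in which the Trim71-binding region of the Ago2 3'UTR was deleted, and 4 libraries of Ago2 KO/CLIPΔ mESCs, which are used at the end. The table held no value of 0, so that a gene silent in any library was not analysed here.

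Ago2 is one of the 4 mouse Argonaute proteins, which hold a small RNA and use its seed, bases 2 to 8, to find partly complementary mRNAs. With GW182 proteins (Tnrc6a, Tnrc6b and Tnrc6c) an Argonaute recruits deadenylases and decapping factors, and the mRNA is translated less and decays faster. Ago2 is the only mammalian Argonaute known as an efficient slicer of fully paired targets. In mESCs the miR-290 cluster dominates and let-7 is held down by Lin28a, and mESCs without miRNAs are known to grow slowly and to resist differentiation.

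The guides are shown because they define the allele. Both were matched to GRCm38.p6 (mm10), where Ago2 lies on the minus strand of chromosome 15, and they are printed 5′ to 3′ with the PAM of the genome in capitals:

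guide 1: ggggttccaataccagcggtTGG

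guide 2: gatccttggttacccgatccTGG

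Guide 1 matched chr15:73123243-73123262 on the minus strand, within intron 11 of the 19-exon RefSeq transcript. Guide 2 matched chr15:73124083-73124102 on the plus strand, within intron 9. The expected cut sites lay 854 bp apart and enclosed exons 10 and 11, which hold 257 coding bases, a number that leaves a remainder of 2 when divided by 3. The deletion itself cannot be read from gene-level values and was not measured here.

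Ago2 mRNA was nearly lost from the KO libraries. Ago2 was at 28.2 and 21.6 TPM in WT and 1.67, 1.85, 1.97 and 2.29 TPM in Ago2 KO. The groups did not overlap, and the log2 fold change was -3.13 (SE 0.139, adjusted p = 0.000128). All fold changes here are differences of mean log2(TPM + 1), Ago2 KO minus WT, which understate the change of genes at low TPM, and a gene is said to have risen or fallen where limma's adjusted p was under 0.05. By an exact permutation test, two-sided, p was 0.0667, the smallest that 15 splits of 4 and 2 libraries can give, so this test cannot reach 0.05 in this design, and the adjusted p-values rest on limma's model over all genes.

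The other Argonaute transcripts did not rise. Ago1, the most abundant one, was at 63.3 and 55.9 TPM in WT and 42.3, 39.5, 37.9 and 36.8 TPM in Ago2 KO, and it fell by 0.59 on the log2 scale (adjusted p = 0.00215). The fall of Ago1 was -0.14 with adjusted p = 0.168 after the correction for GC content and length that is explained below. Ago3 was at 2.06 and 1.18 TPM in WT and between 0.575 and 0.663 TPM in Ago2 KO, and Ago4 was at 0.319 and 0.325 TPM in WT and between 0.071 and 0.170 TPM in Ago2 KO. Both were below the mean of 1 TPM and were not tested. The 4 Argonautes summed to 93.9 and 78.9 TPM in WT and to 44.7, 42.1, 40.6 and 39.8 TPM in Ago2 KO. Ago2 made up 30.0% and 27.3% of that sum in WT and between 3.75% and 5.77% in Ago2 KO. Transcript sums are no measure of Argonaute protein.

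**Figure D1:**
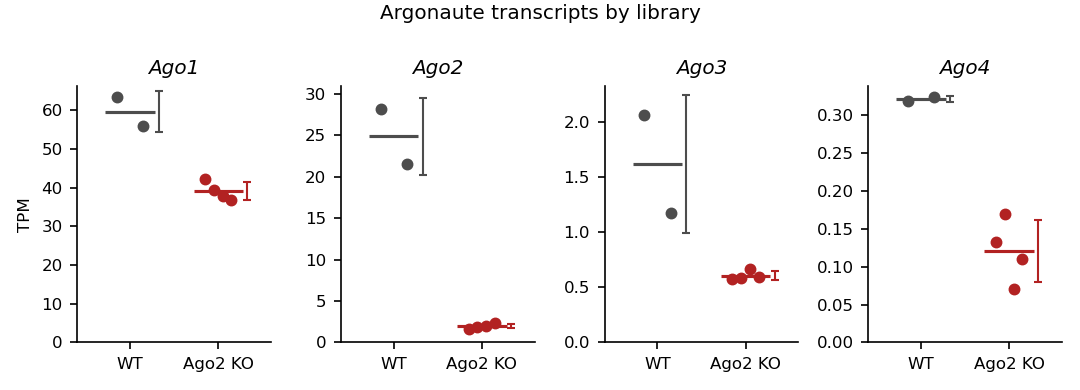
TPM of Ago1, Ago2, Ago3 and Ago4 in each library (points) with the group mean and SD (n = 2 WT, n = 4 Ago2 KO), each panel on its own axis from 0. Ago2 is at 28.2 and 21.6 TPM in WT and between 1.67 and 2.29 TPM in Ago2 KO, and the other 3 are also lower in every Ago2 KO library than in either WT library.

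The change outside Ago2 was broad and mostly downward. Of the 11297 genes, 6499 passed the threshold (57.5%), 1589 higher (14.1%) and 4910 lower (43.5%) in Ago2 KO, and the median of all genes was -0.26. Without overlap between the groups were 2064 genes that were higher (18.3%) and 5664 that were lower (50.1%). Large changes were rarer, with 191 genes past the threshold at least 1 log2 unit higher and 1018 at least 1 unit lower. Transcripts of the other types fell more often than protein-coding ones, with 181 of 354 lower (51.1%) and 28 higher (7.91%) against 4693 (43.2%) and 1552 (14.3%) of 10867, a difference that was not tested.

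The downward lean moved with transcript composition. Over the 11221 genes with an annotated length, the fold change followed GC content (Spearman's rho 0.51 across genes, which are not replicates), with a median of -0.66 in the fifth with the lowest GC content (up to 44.4%) and 0.17 in the fifth with the highest (from 56.2%). It ran from 0.06 in the fifth with the shortest transcripts to -0.56 in the fifth with the longest. The genes that fell had a median GC content of 46.7% and a median length of 3988 nt, against 55.4% and 2164 nt for those that rose. The same trend lay between the WT libraries, with rho 0.48 for replicate 2 against replicate 1, and was weaker within Ago2 KO, with rho 0.15 for replicates 3 and 4 against 1 and 2. The WT libraries differed more from each other (r = 0.977, 225 genes at least 1 log2 unit higher in replicate 2 and 173 lower) than the KO libraries did (r from 0.994 to 0.998). WT replicate 2 was the nearer one to Ago2 KO, with r between 0.971 and 0.972 against 0.943 to 0.948 for replicate 1. Mir6236, an annotation that overlaps ribosomal RNA sequence, was at 17606 and 36214 TPM in WT and between 5792 and 7295 TPM in Ago2 KO. How much these library differences add to the results was not tested, and genotype and library make-up cannot be told apart.

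**Figure D2:**
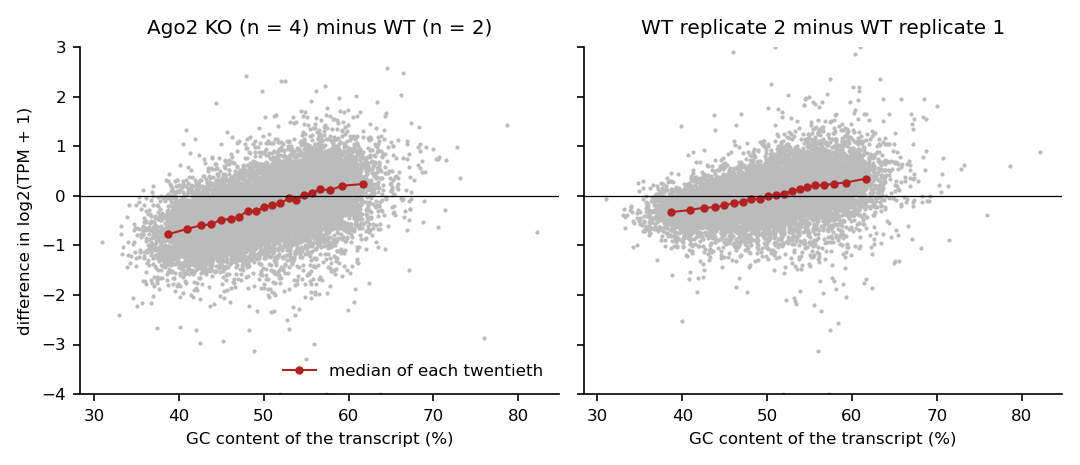
Difference in log2(TPM + 1) of each gene (grey points) against the GC content of its transcript in percent, for Ago2 KO against WT and for WT replicate 2 against 1, with the median of each twentieth of the genes joined by a line. Values beyond -4 and 3 are drawn at the edge. The line rises with GC content in Ago2 KO against WT (rho 0.51) and in WT replicate 2 against 1 (rho 0.48).

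Each fold change is therefore followed, where it matters, by its value after splines of GC content and log2 length were fitted and removed in each library, a correction chosen after the trend was seen. With it, 4925 of 11221 genes passed (43.9%), 2593 higher (23.1%) and 2332 lower (20.8%), and the median was 0.02. The fit also held a constant for each library, which sets the mean difference over genes to 0. A median near 0 is therefore built in, much as with median centring, and the split of calls depends on it. The loss of the downward lean thus does not show where that lean came from. The share of calls that were higher was 24.4% as deposited, 52.6% after the correction and 61.2% after each library was centred on its median (5971 genes past the threshold, 52.9%, with 3655 higher, 32.4%, and 2316 lower, 20.5%). The same direction was called with and without the correction for 1373 genes that rose and 2161 that fell, and opposite directions for 152. Changes below are read against the median of -0.26 as deposited. List counts are read against the shares of all genes, 14.1% higher and 43.5% lower as deposited, and 23.1% and 20.8% corrected.

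The 10 steepest falls included Ago2 itself, 3 immediate early genes (Egr1, Fos and Fosb), 2 non-coding RNAs (Rmrp and Malat1), and the coding genes Gm20219, Dppa3, Asmt and 1700013H16Rik. Egr1, a zinc-finger factor transcribed within minutes of ERK activation, was at 2481 and 68.3 TPM in WT and 2.38, 2.49, 1.31 and 1.10 TPM in Ago2 KO. Fos, a subunit of the AP-1 factor, was at 459 and 27.9 TPM in WT and 2.54, 3.32, 1.46 and 1.84 TPM in Ago2 KO. The WT libraries were far apart in both genes, with replicate 1 the highest, and every KO library lay below both (log2 fold change -7.24, adjusted p = 0.00241 for Egr1, and -5.16, adjusted p = 0.00346 for Fos). Fosb, another AP-1 subunit, was at 41.6 and 3.88 TPM in WT and 1.21, 0.635, 0.729 and 0.748 TPM in Ago2 KO (log2 fold change -2.99, SE 0.73, adjusted p = 0.0112). The GC and length correction left them at -7.21, -5.11 and -2.96. Against WT replicate 2 alone they were at -4.66, -3.17 and -1.43 and still passed, on the assumption, here and below, that the lone WT library varies like the KO group. Fosb was at -4.55 against replicate 1 alone.

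Rmrp, the RNA of the RNase MRP ribonucleoprotein, was at 435 and 1685 TPM in WT and 30.0, 35.7, 37.5 and 22.6 TPM in Ago2 KO (log2 fold change -4.75, SE 0.487, adjusted p = 0.000439). Malat1, a nuclear long non-coding RNA, was at 959 and 369 TPM in WT and 88.1, 62.9, 73.9 and 78.4 TPM in Ago2 KO (log2 fold change -2.97, SE 0.342, adjusted p = 0.000633). Again the WT libraries differed by a wide margin, in opposite directions for these 2 RNAs, and the KO libraries lay close together below them. Among coding genes, Asmt, the last enzyme of melatonin synthesis, was at 60.9 and 46.5 TPM in WT and 5.57, 6.29, 6.68 and 7.05 TPM in Ago2 KO (log2 fold change -2.88, SE 0.137, adjusted p = 0.000128). The predicted genes Gm20219 and 1700013H16Rik, of no known role, changed by -3.29 and -2.71. All 5 of these kept their call after correction, from -2.18 (Malat1) to -4.83 (Rmrp).

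By log2(TPM + 1) as deposited a histone transcript ranked first among the rises, an order that depended on the scale, with Fcrla at 2.62 and Hist1h2ap at 2.33 after correction, and Slc38a5 at 3.77 and Fcrla at 3.19, both above Hist1h2ap, with a pseudocount of 0.1 TPM. Hist1h2ap, a replication-dependent H2A gene, was at 69.0 and 98.1 TPM in WT and 415, 489, 523 and 583 TPM in Ago2 KO (log2 fold change 2.58, SE 0.177, adjusted p = 0.000179). Near-identical H2A copies share reads, so its level is uncertain. Cited4, a CBP/p300-binding coactivator, was at 38.1 and 34.8 TPM in WT and 281, 239, 162 and 174 TPM in Ago2 KO (log2 fold change 2.48, SE 0.223, adjusted p = 0.000299), and S100a6, a calcium-binding protein, at 29.7 and 17.5 TPM in WT and 161, 178, 86.6 and 74.8 TPM in Ago2 KO (log2 fold change 2.31, SE 0.394, adjusted p = 0.00268). In both, KO replicates 1 and 2 were higher than 3 and 4, and all 4 lay above WT. Pcsk1n, an inhibitor of the prohormone convertase PC1, stood at 7.93 and 8.57 TPM in WT and 42.9, 43.9, 38.4 and 41.4 TPM in Ago2 KO (log2 fold change 2.20, SE 0.0913, adjusted p = 0.000128), with all 4 KO libraries close together.

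The others of the 10 steepest rises were Fcrla, an Fc receptor-like protein of B cells, Slc38a5, a glutamine transporter, Htra1, a secreted serine protease, Dynlt1b, a dynein light chain, Gm13889, of no role given here, and Inhbb, the βB subunit of activin and inhibin. Their log2 fold changes were 2.43, 2.31, 2.12, 2.12, 2.03 and 2.01. Slc38a5 was at 0.0707 TPM in WT replicate 1 and 1.62 TPM in WT replicate 2, so its fold change rests on a low and unsteady WT level. Among abundant transcripts, Rabac1, a prenylated Rab acceptor, was at 158 and 205 TPM in WT and 589, 565, 619 and 637 TPM in Ago2 KO (log2 fold change 1.74, SE 0.118, adjusted p = 0.000179), and Zfp296, a zinc-finger partner of Klf4, was at 202 and 311 TPM in WT and 767, 765, 862 and 873 TPM in Ago2 KO (log2 fold change 1.70, SE 0.169, adjusted p = 0.000406). Each of these 8 genes kept its call after the correction, and the smallest corrected value was 1.43, that of Zfp296.

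**Figure D3:**
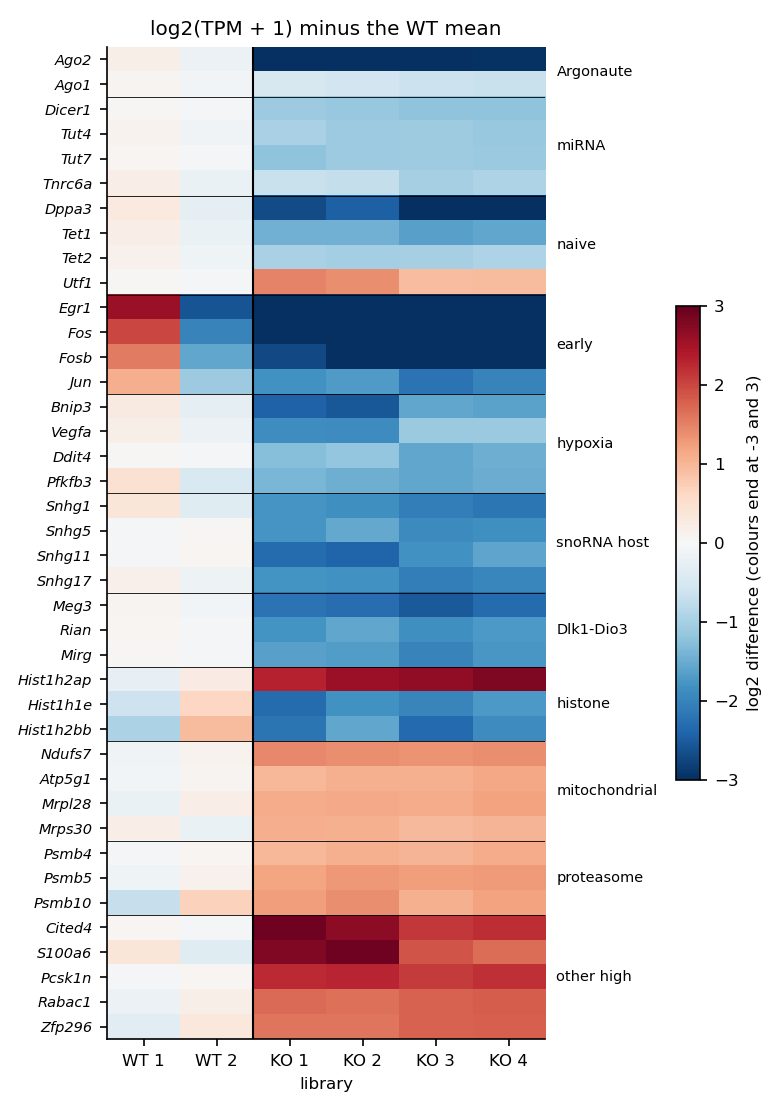
Heat map of log2(TPM + 1) minus the WT mean for named genes (rows) in each library (columns), with colours that end at -3 and 3 log2 units. The 4 Ago2 KO libraries carry the same colour in nearly every row, and the WT libraries differ most in Egr1 (2481 and 68.3 TPM) and Fos (459 and 27.9 TPM).

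The partners of Ago2 in silencing were lower in a share not far from that of all genes. Of silencing cofactors, 1 of 13 members tested were higher, 7 were lower and 5 did not pass, with a median log2 fold change of -0.40. The share lower was 53.8% as deposited, beside 43.5% of all genes, and 23.1% when corrected, beside 20.8%. Ddx6, the helicase that links the complex to decapping, was at 76.7 and 51.6 TPM in WT and 32.998, 31.8, 28.4 and 27.7 TPM in Ago2 KO (log2 fold change -1.04, SE 0.163, adjusted p = 0.00193, corrected -0.34 with adjusted p = 0.035). Tnrc6a, Tnrc6b and Tnrc6c, the GW182 scaffolds, were at -0.82, -0.76 and -0.84, and at -0.19, 0.10 and -0.26 after correction, where only Tnrc6c still passed (adjusted p = 0.0218) and Tnrc6b had the other sign. With the correction 1 cofactor was higher and 3 were lower.

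Among miRNA processing genes, 2 of 18 members tested were higher, 9 were lower and 7 did not pass, with a median log2 fold change of -0.36 (4 higher, 6 lower and a median of -0.06 corrected). The share lower over all genes was 43.5% as deposited and 20.8% corrected. Dicer1, which cuts pre-miRNA hairpins, was at 29.9 and 28.5 TPM in WT and 13.3, 12.7, 12.02 and 12.2 TPM in Ago2 KO (log2 fold change -1.16, SE 0.0856, adjusted p = 0.000216), and the KO libraries spanned 12.02 to 13.3 TPM. It kept its call after correction (-0.48 with adjusted p = 0.00255). Ddx5, a helicase of the Microprocessor, fell by 1.06 (-0.52 with adjusted p = 0.0282 corrected, and -0.68 without WT replicate 1). In the Microprocessor itself, Drosha, its nuclease, was at 43.6 and 42.3 TPM in WT and 38.4, 38.2, 35.3 and 36.1 TPM in Ago2 KO and did not pass (adjusted p = 0.0572), while its partner Dgcr8 passed at -0.93 as deposited (adjusted p = 0.0132) but not corrected (-0.53, adjusted p = 0.0793). Drosha and Dgcr8 were chosen for naming after their values were seen.

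Most regulators of let-7 were lower in the deposited values, with 8 of 9 lower, none higher and a median of -0.78. After correction 3 of 9 were lower, with a median of -0.14. The share lower over all genes was 43.5% as deposited and 20.8% corrected. In Ago2 KO/CLIPΔ against CLIPΔ, the contrast given at the end, the list's median was -0.25, as was that of all genes. Tut4 and Tut7, the uridylyltransferases that mark pre-let-7 for decay, were at 7.52 and 6.32 TPM in WT and 3.02, 2.70, 2.80 and 2.59 TPM in Ago2 KO and 16.9 and 15.5 TPM in WT and 6.48, 7.11, 7.23 and 6.98 TPM in Ago2 KO, with log2 fold changes of -1.07 and -1.11 and corrected values of -0.32 and -0.52, both still past the threshold. Syncrip and Msi2, RNA-binding proteins, went from -1.25 and -0.80 to -0.14 and -0.028 and no longer passed. Lin28a, which blocks let-7 maturation, was at 108 and 104 TPM in WT and 122, 112, 79.0 and 74.4 TPM in Ago2 KO and did not pass (adjusted p = 0.55). In it KO replicates 1 and 2 lay above both WT libraries and replicates 3 and 4 below. Trim71 was at 34.9 and 34.9 TPM in WT and 28.5, 25.7, 22.5 and 24.9 TPM in Ago2 KO (log2 fold change -0.45, SE 0.106, adjusted p = 0.00982, corrected -0.06 with adjusted p = 0.622).

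Known targets of these miRNAs did not rise together. Beside them, 14.1% of all genes were higher and 43.5% lower as deposited, and 23.1% and 20.8% corrected. Of classical let-7 targets, 2 of 24 members tested were higher, 14 were lower and 8 did not pass, with a median log2 fold change of -0.51, and after correction 2 were higher and 8 lower of 24, with a median of -0.10. Hmga2, a chromatin protein and the textbook let-7 target, was at 4.05 and 3.96 TPM in WT and 1.70, 1.597, 1.38 and 1.27 TPM in Ago2 KO (log2 fold change -1.01, SE 0.108, adjusted p = 0.000501). Igf2bp2, an mRNA-binding protein, fell by 1.05 as deposited, and both still passed when corrected, at -0.55 and -0.67. Of known miR-290 and miR-302 targets, 3 of 23 members tested were higher, 11 were lower and 9 did not pass, with a median log2 fold change of -0.40, and corrected 3 were higher and 8 lower of 23, with a median of -0.057. Casp2, a caspase, was at 18.4 and 15.9 TPM in WT and 8.33, 7.91, 7.16 and 7.98 TPM in Ago2 KO (log2 fold change -1.04, SE 0.103, adjusted p = 0.000401, corrected -0.68 with adjusted p = 0.00123). Cdkn1a, the p21 inhibitor of cyclin-dependent kinases, whose mRNA carries sites of the miR-290 seed, fell (log2 fold change -0.84, corrected -0.90, named after its values were seen). Arid4b, Ash1l and Zfp148, chromatin and zinc-finger proteins, were at -1.09, -1.08 and -1.02, the last at -0.026 after correction (adjusted p = 0.807).

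To look at targets without a chosen list, 3'UTRs were searched on the mRNA strand for 8mer sites, the complement of seed bases 2 to 8 followed by an A. The mature miRNAs below, from the RefSeq annotation of GRCm38, define the families that matter most in mESCs, with let-7, and mmu-miR-9-5p as a family of other tissues. The seed is in capitals:

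mmu-miR-291a-3p: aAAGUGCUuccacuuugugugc

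mmu-miR-293-3p: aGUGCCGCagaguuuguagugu

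mmu-miR-16-5p: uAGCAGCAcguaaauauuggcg

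mmu-miR-30a-5p: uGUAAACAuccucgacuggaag

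mmu-let-7g-5p: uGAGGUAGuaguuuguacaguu

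mmu-miR-9-5p: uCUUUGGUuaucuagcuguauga

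The 8mers searched were AGCACTTA for the miR-290 seed, GCGGCACA for miR-293-3p, TGCTGCTA for miR-15/16, TGTTTACA for miR-30, CTACCTCA for let-7 and ACCAAAGA for miR-9-5p. Of the 10847 tested genes with an annotated 3'UTR, the number with the 8mer was 371 for miR-290, 68 for miR-293-3p, 457 for miR-15/16, 846 for miR-30, 392 for let-7 and 475 for miR-9-5p. A site in these letters is a match, not shown to be bound.

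Transcripts with sites did not have higher medians than those without. The median log2 fold change was -0.47 for genes with a miR-290 8mer, with 19 of 371 higher (5.12%) and 219 lower (59.0%). It was -0.38 for miR-15/16, -0.49 for miR-30, -0.35 for let-7 and -0.27 for miR-293-3p, against -0.25 over all genes with a 3'UTR and -0.14 over the 6558 genes with none of the 18 families' 8mers. Genes with sites had longer 3'UTRs and lower GC content, with medians of 2744 nt and 47.0% for miR-290 against 661 nt and 52.1% for those with none. The families of other tissues lay within the same range, at -0.39 for miR-9-5p and -0.53 for miR-208 (62 genes).

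After the GC and length correction the medians came together near 0. They were 0.04 for miR-290, 0.06 for miR-15/16, -0.01 for miR-30, 0.06 for let-7, 0.11 for miR-293-3p and 0.06 for miR-9-5p, against 0.04 for genes with no site and 0.03 over all genes with a 3'UTR. Of the 371 genes with a miR-290 8mer, 92 were then higher (24.8%) and 78 lower (21.02%), beside 23.5% and 20.3% over all genes with a 3'UTR. With 7mer sites, which took in 1815 genes for miR-290 and 1143 for let-7, the corrected medians were 0.04 and 0.06. Because genes with sites differed in 3'UTR length and GC content, the correction can also remove a site effect that follows these. The corrected medians therefore cannot settle whether targets changed.

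**Figure D4:**
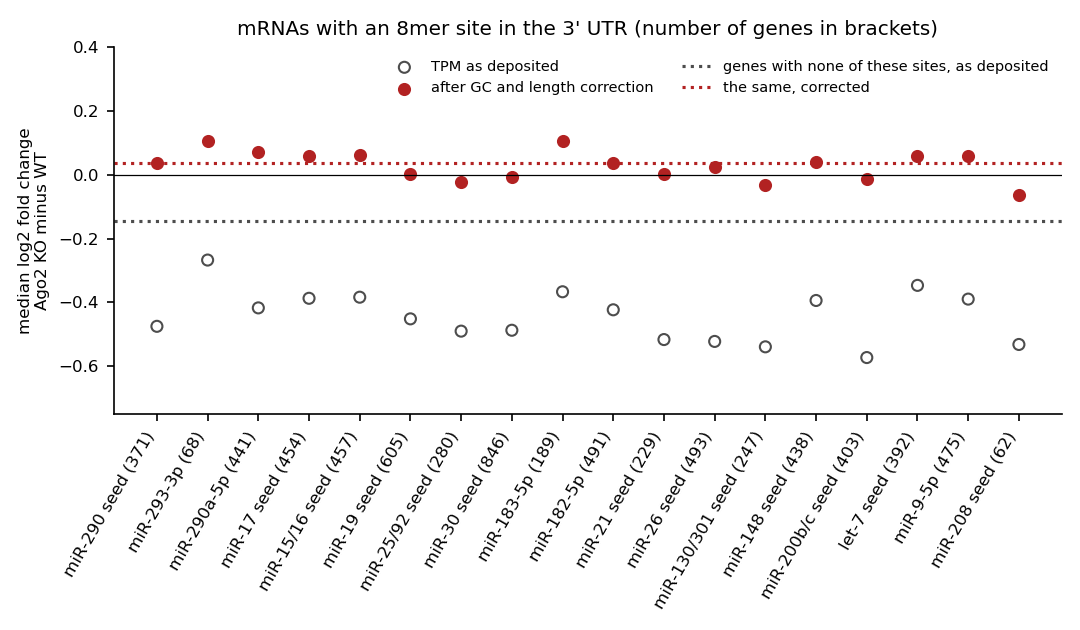
Median log2 fold change, Ago2 KO minus WT, of genes with an 8mer site for each of 18 miRNA families (points) and of genes with none of them (dotted lines), as deposited and after the GC and length correction, with the number of genes in brackets. The deposited medians run below 0 for every family, from -0.57 (miR-200b/c) to -0.27 (miR-293-3p), and the corrected ones from -0.06 (miR-208) to 0.11 (miR-293-3p).

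The core pluripotency genes kept high levels. Pou5f1 (Oct4), which defines the cells, was at 2672 and 2879.5 TPM in WT and 3222, 3262, 3192 and 3239 TPM in Ago2 KO, 0.22 higher by fold change (adjusted p = 0.0448) and at 0.01 after correction. Nanog was at 1204 and 749 TPM in WT and 802, 804, 592 and 611 TPM in Ago2 KO and did not pass (adjusted p = 0.115), with WT replicate 2 inside the KO range. Klf4 was at 1246 and 1076 TPM in WT and 852, 801, 759 and 775 TPM in Ago2 KO and fell (log2 fold change -0.54, SE 0.0948, adjusted p = 0.00299, corrected -0.53 with adjusted p = 0.00859). Esrrb, Tfcp2l1, Zfp42 and Dppa5a, further markers of the naive state, were at -0.078, -0.47, -0.19 and -0.14 and did not pass, and Tdh, the threonine dehydrogenase of mouse ES cells, rose by 0.31 (adjusted p = 0.0172). All 8 of these defining markers were well expressed in every library, the lowest being Esrrb at 63.7 to 78.1 TPM. Sox2, a further core factor, was not among the tested genes and cannot be judged here.

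Over the naive pluripotency list, 4 of 33 members tested were higher, 11 were lower and 18 did not pass, with a median log2 fold change of -0.24, and corrected 3 were higher and 6 lower of 33, with a median of 0.031. Dppa3 (Stella), a maternal factor that protects methylated loci, was at 28.3 and 18.8 TPM in WT and 2.76, 3.39, 1.28 and 1.61 TPM in Ago2 KO (log2 fold change -2.94, SE 0.293, adjusted p = 0.000407, corrected -2.62). Tet1 and Tet2, the 5-methylcytosine dioxygenases of mESCs, were at 74.97 and 56.0 TPM in WT and 23.2, 23.1, 20.1 and 21.4 TPM in Ago2 KO and 49.997 and 42.3 TPM in WT and 23.0, 22.2, 22.7 and 23.6 TPM in Ago2 KO, at -1.52 and -0.98 by fold change and -0.58 and -0.23 after correction, all past the threshold. Utf1, a chromatin factor of undifferentiated cells, went the other way, at 1308 and 1254 TPM in WT and 3582, 3373, 2451 and 2473 TPM in Ago2 KO (log2 fold change 1.19, SE 0.178, adjusted p = 0.0016, corrected 0.83 with adjusted p = 0.0129). The primed and formative list moved little, with 3 of 21 lower and 1 higher, and 2 lower and 0 higher corrected. Zic2, a zinc-finger factor of formative cells, was its steepest change, at 179 and 77.4 TPM in WT and 27.5, 19.4, 21.4 and 24.8 TPM in Ago2 KO (log2 fold change -2.30, SE 0.309, adjusted p = 0.00106), and it fell as steeply after correction (-2.52). Etv5 and Sox4, transcription factors, fell by 0.66 and 0.64, and Etv5 was at -0.45 with adjusted p = 0.0738 after correction and at -0.35 without WT replicate 1. Tcf15, a factor of the exit from the naive state, rose by 0.37 but stood at -0.021 after correction (adjusted p = 0.86) and at 0.23, adjusted p = 0.228 without WT replicate 1. It also lost its call when any single KO library was left out.

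Lineage genes moved in both directions, beside 14.1% of all genes higher and 43.5% lower as deposited, and 23.1% and 20.8% corrected. In endoderm 3 of 14 members were higher and 4 lower, in mesoderm 3 and 2 of 15, in neuroectoderm 1 and 6 of 9, in trophectoderm 2 and 2 of 12. After correction they were 4 higher and 0 lower, 3 and 3, 2 and 4, and 1 and 1, so that no endoderm gene remained lower. The mesoderm median was 0.25, the highest of the lists with at least 10 members tested, and 0.089 corrected. Fibroblast markers, a check for feeder cells, had 0 higher and 2 lower of 6, Fn1 (fibronectin, -1.26) and Tagln (-0.93, -0.45 without WT replicate 1 and -1.41 without replicate 2), and both are also made by other cells. Single genes moved far, in both directions. Gata2, a factor of blood progenitors, was at 7.10 and 4.94 TPM in WT and 17.8, 19.06, 20.1 and 20.4 TPM in Ago2 KO (log2 fold change 1.55, SE 0.138, adjusted p = 0.000294). Tubb3, a neuronal tubulin, was at 40.1 and 51.6 TPM in WT and 143, 136, 147 and 139 TPM in Ago2 KO (log2 fold change 1.61, SE 0.111, adjusted p = 0.000184). The neural intermediate filaments went the other way, with Nefm at 209 and 149 TPM in WT and 52.98, 53.7, 45.1 and 44.6 TPM in Ago2 KO (log2 fold change -1.83, SE 0.154, adjusted p = 0.000267) and Nes at -1.30. Brachyury (T), the mesoderm T-box factor and a Wnt target, was at 13.2 and 22.8 TPM in WT and 9.04, 8.09, 5.25 and 5.32 TPM in Ago2 KO (log2 fold change -1.24, SE 0.274, adjusted p = 0.00743). In trophectoderm, Tfap2c fell by 1.20, and Gata3 rose from 0.78 and 0.823 TPM to 2.23, 2.51, 2.28 and 2.27 TPM (log2 fold change 0.88, SE 0.0927, adjusted p = 0.000472). The keratin gene Krt18 rose as deposited by 0.92 (adjusted p = 0.00976) but was at 0.75 with adjusted p = 0.0521 after correction and at 0.62 (adjusted p = 0.05, not under it) without WT replicate 2. Each of the other genes named with a fold change in this account of lineages kept its call after correction.

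Several response lists had more members lower than higher as deposited, as did all genes (14.1% higher and 43.5% lower). That lean did not always hold after correction, where all genes were at 23.1% and 20.8%. Immediate early genes come first. Of the immediate early and ERK target list, 1 of 30 members tested were higher, 16 were lower and 13 did not pass, with a median log2 fold change of -0.61, and corrected 0 were higher and 11 lower of 30, with a median of -0.50. Jun, the partner of Fos in AP-1, was at 339 and 73.0 TPM in WT and 44.3, 47.7, 33.2 and 38.5 TPM in Ago2 KO (log2 fold change -1.93, SE 0.524, adjusted p = 0.0169). The list summed to 11228 and 5118 TPM in WT and to between 5103 and 5800 TPM in Ago2 KO, so that only WT replicate 1 stood apart in the sum. Its median difference was -0.97 from WT replicate 1 alone and -0.38 from replicate 2 alone. The YAP targets Cyr61 and Ctgf, matricellular proteins, split the same way, at 599 and 134 TPM in WT and 89.6, 89.1, 70.9 and 75.5 TPM in Ago2 KO and 719.7 and 134 TPM in WT and 91.5, 95.1, 108 and 106 TPM in Ago2 KO (log2 fold change -1.80, adjusted p = 0.0196, and -1.63, adjusted p = 0.041). Without WT replicate 1, Jun, Cyr61 and Ctgf were at -0.83, -0.72 and -0.42, and without WT replicate 2 at -3.03, -2.87 and -2.84. Ctgf lost its call when any KO library was left out, with adjusted p up to 0.0794. Over the whole list of actin cytoskeleton and YAP targets, 6 of 32 members tested were higher, 12 were lower and 14 did not pass. The median log2 fold change was -0.13, beside -0.26 over all genes. Corrected, 7 were higher and 5 lower of 30, with a median of 0.049, beside 0.02 over all genes.

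The hypoxia response was lower across most of its members, with either WT library as the reference. In that list 0 of 25 members tested were higher, 22 were lower and 3 did not pass, with a median log2 fold change of -0.80, and corrected 0 were higher and 14 lower of 25, with a median of -0.48. The median difference was -1.02 from WT replicate 1 alone and -0.70 from replicate 2 alone. Bnip3, a mitophagy receptor, was at 17.4 and 11.8 TPM in WT and 1.84, 1.62, 4.18 and 4.03 TPM in Ago2 KO (log2 fold change -2.04, SE 0.329, adjusted p = 0.00212), and Vegfa, the angiogenic growth factor, at 26.1 and 19.98 TPM in WT and 5.52, 5.40, 9.98 and 10.01 TPM in Ago2 KO (log2 fold change -1.50, SE 0.274, adjusted p = 0.00352). In both genes KO replicates 1 and 2 were lower than 3 and 4. Ddit4, an inhibitor of mTORC1, was at 444 and 419.7 TPM in WT and 177, 192, 146 and 156 TPM in Ago2 KO (log2 fold change -1.36, SE 0.122, adjusted p = 0.000299), with the KO libraries close together. Pfkfb3, which makes the activator of phosphofructokinase, fell by 1.47. These 4 kept their calls after correction, at -1.58, -1.29, -1.57 and -1.13. Glycolysis as a whole had 5 of 23 members higher and 6 lower (4 and 3 corrected), with medians of -0.24 in KO replicates 1 and 2 and 0.06 in 3 and 4.

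Metal-binding and stress transcripts moved gene by gene. The 5 metallothionein-related genes summed to 7292 and 6059 TPM in WT and to between 2137 and 3591 TPM in Ago2 KO, with 4 lower and 1 higher as deposited and 1 lower and 1 higher when corrected. Mt1 (corrected -0.59 with adjusted p = 0.0612) and the zinc exporter Slc30a1 (corrected -0.051 with adjusted p = 0.83) were among those that lost the call. Mt2 was at 4559 and 3567 TPM in WT and 1261, 1442, 708 and 683 TPM in Ago2 KO (log2 fold change -2.06, SE 0.331, adjusted p = 0.0021, corrected -2.09 with adjusted p = 0.00552), and Mt3 rose by 0.97 (adjusted p = 0.0343), but was at 0.32, adjusted p = 0.0937 without WT replicate 1, at 1.62 without replicate 2, and lost its call without any 1 of the KO libraries. Of the p53 response, 3 of 35 members tested were higher, 17 were lower and 15 did not pass, with a median log2 fold change of -0.60, and corrected 5 were higher and 10 lower of 35, with a median of -0.32. Gadd45a, a growth arrest gene, was at 59.1 and 34.7 TPM in WT and 14.8, 13.5, 13.9 and 15.3 TPM in Ago2 KO (log2 fold change -1.59, SE 0.193, adjusted p = 0.00075). Pmaip1 (Noxa), a BH3-only death protein, was at 18.2 and 6.72 TPM in WT and 2.96, 2.55, 1.93 and 1.73 TPM in Ago2 KO (log2 fold change -1.90, SE 0.342, adjusted p = 0.0033), and both kept the call after correction. Without WT replicate 1 Pmaip1 was at -1.25. Trp53inp1 fell by 1.48 as deposited (-0.67 and -2.28 without WT replicates 1 and 2) and was at -0.62 with adjusted p = 0.147 corrected. The median of the p53 list was -0.90 from WT replicate 1 alone and -0.27 from replicate 2 alone, the latter near the -0.24 of all genes. Of the unfolded protein response, 4 of 24 members tested were higher, 12 were lower and 8 did not pass, with a median log2 fold change of -0.37. Hsp90b1 (GRP94) was at -1.26, and at -0.70 corrected, and Hspa5 (BiP) was at -0.81. Hspa5 lost its call after correction (-0.35 with adjusted p = 0.28), without WT replicate 1 (-0.23, adjusted p = 0.216) and without any 1 of the KO libraries, and was at -1.38 without WT replicate 2, and 5 members of the list were higher and 2 lower when corrected. Of the ATF4 and amino acid response, 4 of 38 were higher and 6 lower, with Stc2, a secreted glycoprotein, at -1.997. When corrected, 8 were higher and 2 lower. The median was -0.12 as deposited and 0.12 corrected, above that of all genes both times (-0.26 and 0.02). Chaperonins and heat shock proteins went from 3 higher and 7 lower of 25 to 7 and 1, with Hspb1, a small heat shock protein, at 1.31. Their median, -0.15 as deposited and 0.12 corrected, was likewise above that of all genes both times.

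Non-coding host transcripts held the lowest medians of all lists with at least 10 members tested. Of snoRNA host genes, whose spliced RNAs are often decayed on ribosomes, 1 of 15 members tested were higher, 11 were lower and 3 did not pass, with a median log2 fold change of -1.19, and corrected 2 were higher and 9 lower of 13, with a median of -1.17. Snhg5 was at 403 and 424 TPM in WT and 119.6, 141, 109 and 114 TPM in Ago2 KO (log2 fold change -1.77, SE 0.116, adjusted p = 0.000174), and Snhg17 at 124 and 98.8 TPM in WT and 31.3, 30.5, 25.4 and 27.7 TPM in Ago2 KO (log2 fold change -1.91, SE 0.127, adjusted p = 0.000178). Snhg1 and Snhg11 were at -1.96 and -2.03, and all 4 were still past the threshold when corrected. The list's median was -1.11 from WT replicate 1 alone and -1.18 from replicate 2 alone. Of miRNA host genes, 1 of 12 members tested were higher, 9 were lower and 2 did not pass, with a median log2 fold change of -0.93 (3 higher, 7 lower and a median of -0.63 corrected). Mir17hg, the primary transcript of the miR-17-92 cluster, was at 93.5 and 46.1 TPM in WT and 11.1, 13.8, 7.06 and 7.94 TPM in Ago2 KO (log2 fold change -2.65, SE 0.331, adjusted p = 0.000829, corrected -1.97). The median of the miRNA hosts was -1.25 from WT replicate 1 alone and -0.60 from replicate 2 alone.

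mRNA decay factors were lower as deposited. In that list 2 of 56 members tested were higher, 33 were lower and 21 did not pass, with a median log2 fold change of -0.51, and corrected 5 were higher and 19 lower of 56, with a median of -0.18. The median was -0.72 from WT replicate 1 alone and -0.36 from replicate 2 alone. Upf2 and Upf3b, of the nonsense-mediated decay complex, were at -1.33 and -1.51, Smg1, the kinase that acts on Upf1, was at -1.36, and Cnot6, a deadenylase of the CCR4-NOT complex, was at -1.35. Upf2 was at 9.96 and 8.50 TPM in WT and 3.03, 3.06, 3.06 and 3.04 TPM in Ago2 KO, with the 4 KO libraries nearly equal. The corrected values of these 4 were -0.68, -1.03, -0.44 and -0.52, and each passed.

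Most tested transcripts of the imprinted Dlk1-Dio3 domain fell. On chromosome 12, within chr12:109452823-110281097 (mm10), 6 genes were tested, of which 4 fell, Meg3, Rtl1, Rian and Mirg, and Dlk1 rose. Meg3, a maternally expressed long non-coding RNA, was at 147 and 132 TPM in WT and 29.1, 27.9, 23.3 and 27.3 TPM in Ago2 KO (log2 fold change -2.33, SE 0.111, adjusted p = 0.000128). Rian and Mirg, which lie downstream of Meg3 and carry snoRNAs and miRNAs, were at 36.7 and 33.8 TPM in WT and 9.51, 11.4, 9.19 and 9.97 TPM in Ago2 KO and 26.4 and 25.1 TPM in WT and 7.72, 7.41, 5.64 and 6.93 TPM in Ago2 KO (-1.72 and -1.76). Dlk1, a paternally expressed membrane protein, was at 0.651 and 1.22 TPM in WT and 2.18, 2.35, 1.40 and 1.57 TPM in Ago2 KO (log2 fold change 0.57, adjusted p = 0.0325). After correction the same 4 were lower and 1 higher. Over the imprinted list, 2 of 33 members tested were higher, 19 were lower and 12 did not pass, with a median log2 fold change of -0.52 (4 higher, 10 lower and a median of -0.18 corrected), with Igf2r, the receptor that clears IGF2, at 24.9 and 22.6 TPM in WT and 6.36, 6.85, 8.19 and 8.27 TPM in Ago2 KO (log2 fold change -1.56, SE 0.126, adjusted p = 0.000246).

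Chromatin regulators moved in both directions. Of Polycomb genes, 4 of 31 members tested were higher, 17 were lower and 10 did not pass, with a median log2 fold change of -0.39, and corrected 7 were higher and 10 lower of 31, with a median of -0.078. Jarid2, a PRC2 cofactor, was at 55.9 and 82.3 TPM in WT and 18.8, 17.3, 18.8 and 19.22 TPM in Ago2 KO (log2 fold change -1.82, SE 0.151, adjusted p = 0.000256), and Suz12, a PRC2 core subunit, at 69.1 and 50.9 TPM in WT and 26.5, 26.4, 22.9 and 22.5 TPM in Ago2 KO (log2 fold change -1.24, SE 0.142, adjusted p = 0.000611). Bmi1 of PRC1 and Mtf2 of PRC2 fell by 1.21 and 1.18. Corrected, Jarid2, Suz12, Bmi1 and Mtf2 were at -1.24, -0.57, -0.54 and -0.39, all still past the threshold. Epop, a PRC2-associated protein named here after its values were seen, was at 2849 and 3663 TPM in WT and 7182, 6124, 6684 and 6528 TPM in Ago2 KO (log2 fold change 1.03, SE 0.124, adjusted p = 0.000708), the opposite direction to Jarid2 and Suz12. Of DNA methylation and demethylation genes, 1 of 18 members tested were higher, 11 were lower and 6 did not pass, with a median log2 fold change of -0.52, and corrected 1 were higher and 7 lower of 18, with a median of -0.081, with Mbd1, a methyl-CpG binder, at -1.25 and Uhrf2, a hemimethylation reader, at -1.07. Of BAF and NuRD subunits, 3 of 26 were higher and 12 lower (46.2%, near the 43.5% of all genes), 5 and 7 corrected, and Smarcd3, a BAF subunit, rose by 1.20 (0.66 without WT replicate 1).

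Germline genes, many of them silenced by DNA methylation in somatic cells, included 8 that were lower and none that were higher of 24 tested, with a median of -0.26, close to that of all genes (8 lower and 1 higher corrected, with a median of -0.23). Tex15, a meiotic protein of piRNA-directed methylation, was at 16.7 and 12.8 TPM in WT and 1.48, 1.43, 1.42 and 1.53 TPM in Ago2 KO (log2 fold change -2.67, SE 0.118, adjusted p = 0.000128), and Dazl, a germ cell RNA-binding protein, at 9.14 and 3.15 TPM in WT and 0.53, 0.557, 0.69 and 0.652 TPM in Ago2 KO (log2 fold change -2.01, SE 0.311, adjusted p = 0.00179). Rhox5, an X-linked homeobox gene, fell by 1.57, and each of these 3 passed after correction, at -1.61, -1.26 and -1.50. Of the 2-cell-like list, 6 of 32 members were tested, with 3 lower and none higher, and 1 lower and 0 higher corrected. Zfp809, a retroviral silencer, was at -1.45 and alone kept its call, at -1.14 corrected.

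Histone and zinc-finger genes lie in clusters. Of histone genes, 5 of 59 members tested were higher, 20 were lower and 34 did not pass, with a median log2 fold change of -0.51, but the median difference was 0.12 from WT replicate 1 alone and -1.04 from replicate 2 alone, so that the 2 WT libraries gave opposite signs. Within chr13:23535422-23747241, a stretch picked for its low values in these data, 9 of 17 tested histone genes were lower and none higher (8 corrected). Hist1h1e, a linker histone, was at 19.12 and 46.6 TPM in WT and 5.27, 7.76, 6.86 and 8.36 TPM in Ago2 KO (log2 fold change -1.96, SE 0.328, adjusted p = 0.00249), and Hist1h2bb at -1.99, or -1.05 without WT replicate 2. These short mRNAs lack poly(A) tails, and near-identical copies share reads. Of the genes named Zfp, 7 of 293 members tested were higher, 212 were lower and 74 did not pass, with a median log2 fold change of -0.59, and corrected 30 were higher and 97 lower of 293, with a median of -0.13. Zfp629 was at 5.72 and 6.32 TPM in WT and 0.232, 0.378, 0.302 and 0.418 TPM in Ago2 KO (log2 fold change -2.40, SE 0.105, adjusted p = 0.000128). The runs of neighbouring Zfp genes on chr4:145510759-147642513 and chr7:42473386-43457800, also picked for their low values, had medians of -1.63 and -1.43, and -0.76 in both after correction. Zfp990, of the first run, was at 39.2 and 24.5 TPM in WT and 6.66, 7.397, 5.26 and 5.39 TPM in Ago2 KO (log2 fold change -2.17, SE 0.206, adjusted p = 0.000347, corrected -1.35).

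Mitochondrial and proteasomal genes were among the few lists with more members higher than lower. Of 43 lists with at least 10 members tested, 5 had more members higher as deposited, the respiratory chain, mitochondrial ribosomal proteins, the proteasome, one-carbon and nucleotide synthesis, and mesoderm, and 15 did after correction. Of respiratory chain and ATP synthase genes, 37 of 90 members tested were higher, 25 were lower and 28 did not pass, with a median log2 fold change of 0.13, and corrected 41 were higher and 11 lower of 90, with a median of 0.24. Ndufs7, a complex I subunit, was at 73.1 and 85.8 TPM in WT and 216, 208, 203 and 209.6 TPM in Ago2 KO (log2 fold change 1.39, SE 0.0897, adjusted p = 0.000171), and Atp5g1, of the ATP synthase ring, rose by 1.07. Ndufaf4, an assembly factor, fell by 1.10 and was at -0.39 with adjusted p = 0.0638 when corrected. Ndufa4l2, a hypoxia-induced paralogue, was at 59.4 and 64.2 TPM in WT and 6.34, 5.47, 31.4 and 25.6 TPM in Ago2 KO (log2 fold change -2.14, SE 0.687, adjusted p = 0.0319), with KO replicates 1 and 2 far below 3 and 4. It lost its call when either WT library was left out (adjusted p = 0.104 and 0.102). Of mitochondrial ribosomal proteins, 28 of 78 members tested were higher, 12 were lower and 38 did not pass, with a median log2 fold change of 0.18, and corrected 44 were higher and 5 lower of 78, with a median of 0.37. Mrpl28 was at 187 and 251 TPM in WT and 471, 477, 472 and 505 TPM in Ago2 KO (log2 fold change 1.14, SE 0.122, adjusted p = 0.000498), and Mrps34, Mrps30 and Mrpl51 rose by 1.09, 1.04 and 1.04, the first by 0.71 without WT replicate 1. The medians of these lists were 0.12 and 0.20 from WT replicate 1 alone and 0.16 and 0.13 from replicate 2 alone.

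In the proteasome, 16 of 45 members tested were higher, 8 were lower and 21 did not pass, with a median log2 fold change of 0.14, and corrected 24 were higher and 4 lower of 45, with a median of 0.37. Psmb5, the chymotrypsin-like catalytic subunit, was at 151 and 180.1 TPM in WT and 378, 405, 392 and 402 TPM in Ago2 KO (log2 fold change 1.25, SE 0.0936, adjusted p = 0.00022, corrected 1.09 with adjusted p = 0.000291). Psmb10, the immunoproteasome subunit, was at 48.3 and 127 TPM in WT and 189, 207, 166 and 183 TPM in Ago2 KO (log2 fold change 1.23, SE 0.331, adjusted p = 0.0162), with the WT libraries apart, and the value was 0.55 without WT replicate 1 and 1.92 without replicate 2. Psmb4, of the catalytic core, rose by 1.05, and Psmc6, an ATPase of the cap, fell by 0.81 and was at -0.12 with adjusted p = 0.216 when corrected. Cytoplasmic ribosomal proteins did not share this pattern, with 16 of 86 higher and 31 lower, and 21 and 21 corrected. Rpl29 was at 10.4 and 15.7 TPM in WT and 43.1, 42.4, 31.0 and 47.2 TPM in Ago2 KO (log2 fold change 1.59, SE 0.206, adjusted p = 0.000954) and Rpl23a at 775 and 627 TPM in WT and 269, 308, 308 and 266 TPM in Ago2 KO (log2 fold change -1.28, SE 0.119, adjusted p = 0.000323), in genes with many processed pseudogenes that can share reads.

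**Figure D5:**
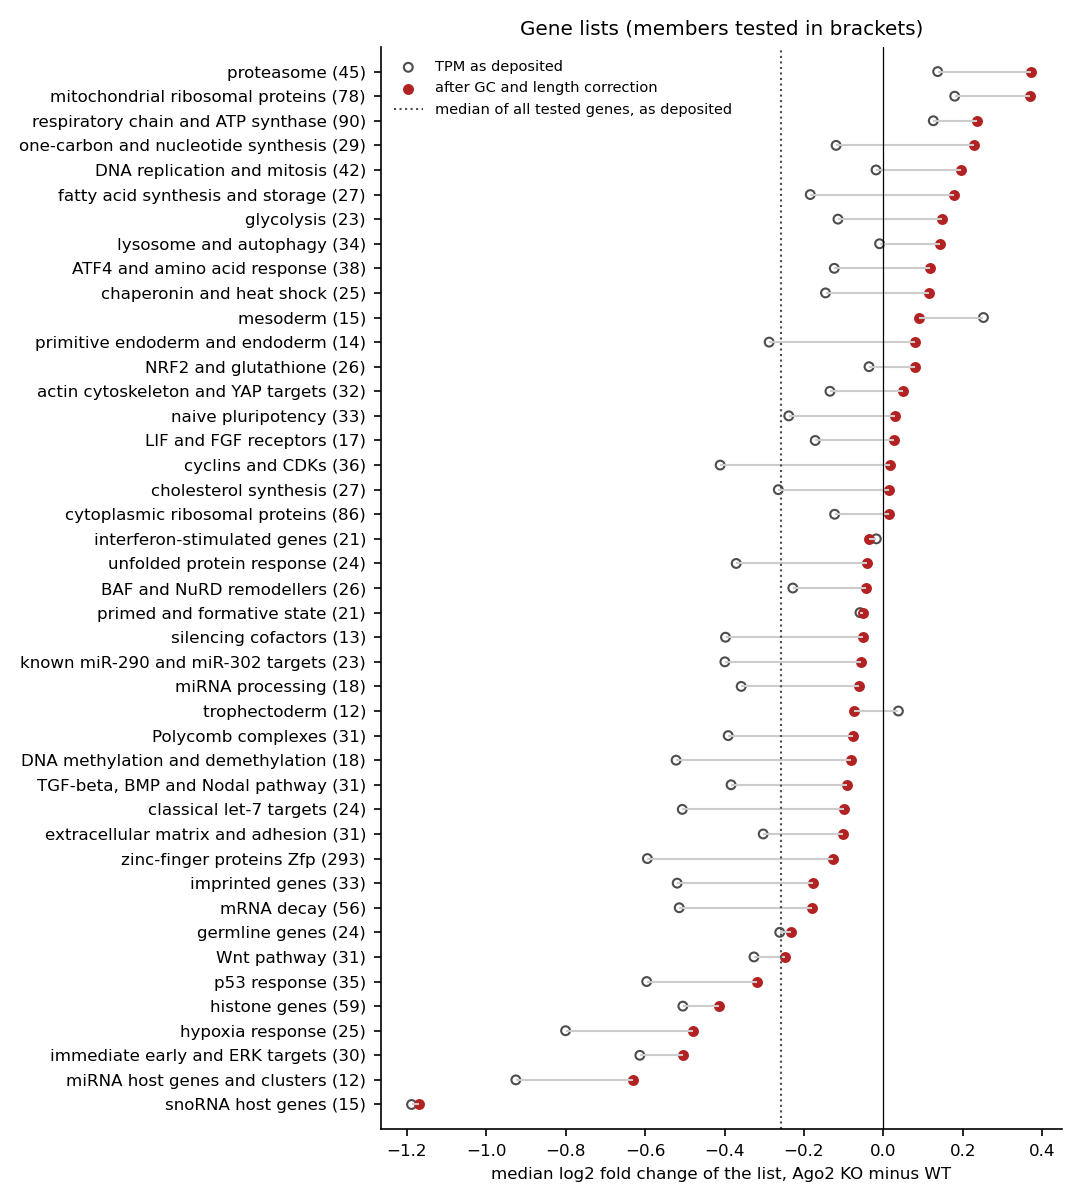
Median log2 fold change, Ago2 KO minus WT, of each gene list with at least 10 members tested, as deposited and after the GC and length correction, with the number of members tested in brackets. Among lists with at least 10 members tested the deposited medians run from -1.19 (snoRNA host genes) to 0.25 (mesoderm). Most move upward when corrected, as does the median of all genes (-0.26 to 0.02).

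One-carbon and nucleotide synthesis had 9 of 29 members higher and 4 lower, and 14 and 1 corrected. Cad, which starts pyrimidine synthesis, was at 273 and 405 TPM in WT and 496, 498, 529 and 494 TPM in Ago2 KO (log2 fold change 0.60, SE 0.15, adjusted p = 0.0124, and 0.31 without WT replicate 1), and Gldc, the glycine decarboxylase of mESCs, was lower at 23.1 and 15.03 TPM in WT and 7.91, 7.39, 8.20 and 7.38 TPM in Ago2 KO (log2 fold change -1.17, SE 0.161, adjusted p = 0.00116). Of DNA replication and mitosis genes, 7 of 42 members tested were higher, 16 were lower and 19 did not pass, with a median log2 fold change of -0.018, and corrected 18 were higher and 8 lower of 42, with a median of 0.19. The 4 steepest members were mitotic and all lower, Mki67 at 186 and 177 TPM in WT and 57.0, 56.9, 49.2 and 48.5 TPM in Ago2 KO (log2 fold change -1.76, SE 0.102, adjusted p = 0.000171), Cenpe at -1.54, Cenpf at -1.48 and Bub1 at -1.12. Their corrected values were -1.04, -0.74, -0.59 and -0.50. Of cyclins and CDKs, 3 of 36 members tested were higher, 20 were lower and 13 did not pass, with a median log2 fold change of -0.41, and corrected 4 were higher and 11 lower of 36, with a median of 0.016. Ccnd3, a D-type cyclin, was at 15.4 and 19.9 TPM in WT and 40.7, 38.7, 39.7 and 37.3 TPM in Ago2 KO (log2 fold change 1.11, SE 0.114, adjusted p = 0.000434) and rose, while E2f3 and E2f8, cell cycle factors, fell by 1.15 and 0.88, E2f8 by 0.54 without WT replicate 2.

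In lipid metabolism, cholesterol synthesis had 4 of 27 members higher and 8 lower, and fatty acid synthesis and storage 3 and 10 of 27. The correction, which moved the median of all genes from -0.26 to 0.02, gave 6 higher and 2 lower, and 9 and 6. The cholesterol median went from -0.26 to 0.01, close to that of all genes both times. The fatty acid median went from -0.18 to 0.18, above that of all genes both times. Hmgcs1, an early enzyme of the cholesterol pathway, fell by 1.36, with WT replicate 1 at 256 TPM and replicate 2 at 119.6 TPM. Without WT replicate 1 it was at -0.82 and still passed. Mvd, a later one, was at 90.1 and 110.0 TPM in WT and 199, 194, 233 and 219 TPM in Ago2 KO (log2 fold change 1.07, SE 0.118, adjusted p = 0.000546), in the opposite direction. Of NRF2 and glutathione genes, 5 of 26 members tested were higher, 9 were lower and 12 did not pass, with a median log2 fold change of -0.036 (6 higher, 9 lower and a median of 0.079 corrected). Gpx2, a glutathione peroxidase, was at 70.8 and 97.9 TPM in WT and 18.6, 23.2, 23.0 and 25.0 TPM in Ago2 KO (log2 fold change -1.85, SE 0.162, adjusted p = 0.000282), and Gclc, the rate-limiting enzyme of glutathione synthesis, fell by 1.34. Of lysosome and autophagy genes, 4 of 34 were higher and 12 lower as deposited, but 7 higher and 3 lower when corrected. Tfeb, the factor that drives lysosomal genes, was at 5.73 and 12.8 TPM in WT and 25.2, 23.8, 24.1 and 22.1 TPM in Ago2 KO (log2 fold change 1.36, SE 0.253, adjusted p = 0.00371) and rose, by 0.85 without WT replicate 1.

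The signalling lists were mixed, beside 14.1% of all genes higher and 43.5% lower as deposited, and 23.1% and 20.8% corrected. Of Wnt pathway genes, 3 of 31 members tested were higher, 17 were lower and 11 did not pass, with a median log2 fold change of -0.33, and corrected 4 were higher and 11 lower of 31, with a median of -0.25. Axin2, a feedback inhibitor and direct Wnt target, was at 38.4 and 50.2 TPM in WT and 18.005, 17.2, 15.1 and 14.5 TPM in Ago2 KO (log2 fold change -1.39, SE 0.139, adjusted p = 0.000408). Apc, of the same destruction complex, fell by 1.42, and by 0.54 when corrected. Sfrp2, a secreted Wnt antagonist, rose by 1.10. Of the TGF-β, BMP and Nodal pathway, 4 of 31 members were higher and 16 lower (5 and 8 corrected). Its ligand gene Inhbb rose, as given above. Id1, a BMP target, was at 56.4 and 123 TPM in WT and 200.2, 172, 174 and 188 TPM in Ago2 KO (log2 fold change 1.13, SE 0.271, adjusted p = 0.0105), while Id4, another Id protein, fell by 1.36 and Skil, a SMAD repressor, by 1.04. Without WT replicate 1, Id1 and Id4 were at 0.57 and -0.62, and Id4 was at -2.11 without replicate 2. Corrected, Id4 and Skil no longer passed (-0.77 with adjusted p = 0.088, and -0.21 with adjusted p = 0.122). Of LIF and FGF receptors and ligands, 3 of 17 were higher and 7 lower (4 and 3 corrected). Kit, the stem cell factor receptor, fell by 0.97, and by 0.52 when corrected. Lifr, the lif receptor, fell by 0.78 as deposited and was at 0.026 with adjusted p = 0.851 when corrected. Of interferon-stimulated genes, 3 of 21 were higher and 8 lower (4 and 5 corrected). Isg20, an exonuclease, was at 12.002 and 0.988 TPM in WT and 0.344, 0.401, 0.256 and 0.197 TPM in Ago2 KO (log2 fold change -1.97, SE 0.63, adjusted p = 0.0315), a difference that rests on WT replicate 1. The value was -3.33 without WT replicate 2, and the call was lost without any 1 of the KO libraries (adjusted p up to 0.0634). Of extracellular matrix and adhesion genes, 3 of 31 were higher and 15 lower (5 and 5 corrected), with Cdh1, the epithelial cadherin of mESC colonies, at -0.89 and Lgals1, a galectin, at 0.98.

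Some runs of neighbouring genes shifted together. The histone, Zfp and S100 regions were named because their runs had extreme medians in these data, so their counts are no test of clustering. Other such runs lay at chr3:88242874-88410331 (corrected median 0.76), chr1:170193420-171222514 (0.73), chr15:75754430-75929832 (0.67) and chr4:155992872-156234857 (-0.77). Chromosome medians ran from -0.54 (chromosome 13) to -0.06 (chromosome 7), and from -0.07 to 0.10 after correction. On chromosome 3, within chr3:90498956-93564643, 5 of 10 tested genes were higher and none lower, S100a6 among them, and the counts were the same after correction. Near Ago2, Chrac1, a chromatin accessibility subunit whose gene overlaps the annotated end of Ago2, was at -0.05, and Ptk2, the focal adhesion kinase, at -0.37 (adjusted p = 0.00977) and 0.10 after correction. Ptp4a3, a phosphatase farther along, rose by 0.72 (adjusted p = 0.00158). Trappc9, Dennd3 and Slc45a4 did not pass.

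A second pair of genotypes gives the same contrast in other libraries. Ago2 was at 27.3 and 20.3 TPM in CLIPΔ and between 1.51 and 2.88 TPM in Ago2 KO/CLIPΔ mESCs. There 5394 of 11256 genes passed (47.9%), 1205 higher (10.7%) and 4189 lower (37.2%). Of the 1570 genes higher in Ago2 KO against WT and tested there, 916 were higher there too (58.3%) and 17 lower, and of the 4838 lower genes, 3490 were lower (72.1%) and 5 higher. The contrasts share no library, but the difference in ribosomal RNA-like signal ran with Ago2 loss in both, with Mir6236 at 21685 and 24561 TPM in CLIPΔ and between 7180 and 8516 TPM in Ago2 KO/CLIPΔ. Their likeness is thus no independent support.

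Of the 192 named genes past the threshold against WT and tested there, 166 were past it in the same direction in the CLIPΔ background, 26 did not pass and 0 went the opposite way, and 137 were nearer to 0 than against WT or of the other sign. Most of these genes were named for their large changes against WT, so smaller values in a second contrast can follow from that choice alone. The same share over all genes was not taken. Egr1 was at -7.37, Fos at -4.27, Hist1h2ap at 2.25, Rmrp at -4.02 and Malat1 at -2.71 in the CLIPΔ background. For Egr1 and Fos the 2 CLIPΔ libraries were far apart, as the WT ones were. The CLIPΔ means were 835 TPM (SD 1100) for Egr1 and 121 TPM (SD 151) for Fos. Cited4 was at 1.37 there against 2.48, Asmt at -1.63 against -2.88 and Zfp629 at -0.78 against -2.40, and the proteasome median was -0.03 against 0.14. A model over all 12 libraries tested the difference of the 2 contrasts. It called 61 of the 11297 genes (0.54%), 10 with a higher and 51 with a lower value in the CLIPΔ background, and 879 had an unadjusted p under 0.05. The Dlk1-Dio3 transcripts were among them, with Meg3 at -0.43, Rian at 0.01 and Mirg at -0.06 in the CLIPΔ background against -2.33, -1.72 and -1.76 against WT. Dppa3 was at -5.87 there, with like mean levels without Ago2 (2.26 TPM in Ago2 KO and 2.06 TPM in Ago2 KO/CLIPΔ). Its reference differed, at a mean of 23.5 TPM in WT and 193 TPM in CLIPΔ (SD 108).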

How the data were processed

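The values are TPM per gene, deposited by the authors in 1 table of 12 RNA-seq libraries. Per the labels and methods, Trizol RNA went into a strand-specific NEBNext kit, reads were mapped to mm10 with HISAT2 2.1.0 and counted with HTSeq on the longest transcript of each gene, and replicates were not pooled. TPM keeps no depth, so read depth is unknown and no counting interval is given; the 6 libraries sum to between 998705 and 999501 TPM. Libraries were grouped by their labels. Genes that averaged 1 TPM or more over 4 Ago2 KO and 2 WT libraries were tested as log2(TPM + 1) with limma 3.58.1 (R 4.3.3), a mean-variance trend, Benjamini-Hochberg adjustment and a threshold of 0.05, without a replicate block. The authors' edgeR analysis of counts could not be repeated on TPM. Annotation came from GENCODE M21 (99.3% of symbols matched). Named genes were the Argonautes, the 10 highest and 10 lowest changes without overlap, the 5 highest and 5 lowest at a mean of at least 50 TPM, and up to 4 members of each of 50 lists, with markers; a few of these genes are not reported here. The members and lists were chosen with earlier results of these data known. The correction fitted a constant for each library and splines of 4 degrees of freedom for GC content and for length. The limma step was tested on simulated data. Python 3.11.15 was used for summaries.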

Additional observations from a re-analysis of the deposited data

Results flagged for a closer look

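Among the 193 genes named by rule, 6 had 1 Ago2 KO library that stood apart from the other 3 by Dixon's criterion, which chance meets in about 1 group of 20. These were Tnrc6c in replicate 1 (6.89 TPM), Skil in replicate 1 (6.08 TPM), Cad in replicate 3 (529 TPM), and in replicate 4 Smarcd3 (31.6 TPM), Mrpl28 (505 TPM) and Mt3 (21.4 TPM).

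For 7 named genes the effect of Ago2 loss differed between the WT and the CLIPΔ background by the interaction term of limma over all 12 libraries. The difference, CLIPΔ background minus WT background on the log2 scale, was -2.94 for Dppa3 (adjusted p = 0.012), -1.12 for Tfap2c (adjusted p = 0.0129) and -0.91 for Gata3 (adjusted p = 0.0128). It was positive for Meg3 (1.90, adjusted p = 0.0104), Rian (1.73, adjusted p = 0.00813), Mirg (1.71, adjusted p = 0.000761) and Zfp629 (1.62, adjusted p = 0.000717). For Tfap2c, as for Dppa3, the references differed more than the cells without Ago2. Its means were 29.6 TPM in WT and 56.6 TPM in CLIPΔ, against 12.2 TPM in Ago2 KO and 10.6 TPM in Ago2 KO/CLIPΔ. Clone and genotype cannot be told apart.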

How the results depend on the processing

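The Ago2 log2 fold change was past the threshold in every alternative, from -3.60 (pseudocount of 0.1 TPM) to -2.41 (GC and length correction). The split of calls was less steady. Against 1589 genes higher and 4910 lower, median centring gave 3655 and 2316, quantile normalization 2683 and 2708, and the correction 2593 and 2332. Ago2 KO replicates 1 and 2 alone gave 3563 genes past the threshold (741 higher, 2822 lower), and replicates 3 and 4 alone 802 higher. Leaving out 1 library gave between 1244 and 2397 higher genes, the latter without WT replicate 2. In the CLIPΔ background centring gave 2817 and 1978, and the correction 1918 and 1734, against 1205 and 4189, and the interaction calls went from 61 to 103 with the correction. Only numbers 1 and 2 are shared between WT and Ago2 KO, and same-numbered deviations did not go together (correlation -0.07). A single value over genes cannot exclude a pairing, so whether the numbers pair the libraries is unknown. A replicate block left 4142 genes past the threshold, 1039 higher and 3103 lower. With the correction Tnrc6b (0.10), Tcf15 (-0.021) and Lifr (0.026) changed sign, none past the threshold, and 34 other named genes no longer passed, against 23 with median centring, 15 with quantile normalization and 6 with the block. Taken relative to the median of all genes in the same setting, list medians changed sign in 11 of 48 lists with quantile normalization. They did so in 7 without WT replicate 1 and 6 with the correction. List medians not taken this way changed sign in more lists with the correction. The causes were not tested. With 2 WT libraries, changes that rest on 1 of them cannot be settled here, and low transcripts have no counts behind them to give a precision.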
